A study of Mus musculus with 8 samples.

Results

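Whether the loss of hepatocyte *Atf4* changes how the neonatal liver responds to triclosan (TCS), an antimicrobial compound, was asked of every gene by subtracting the TCS response of *hUGT1/Atf4* F/F mice from that of *hUGT1/Atf4* ΔHep mice. The members are the genes with enough counts to be tested, 13633 of the 24411 genes in the count table, each with its own value for this difference of responses, called the interaction below. All mice had a C57BL/6 background and carried the human *UGT1* locus in place of the mouse *Ugt1* genes. In F/F mice the *Atf4* gene was flanked by loxP sites and intact, whereas ΔHep mice also carried Cre recombinase under the albumin promoter, which deletes the gene in hepatocytes and spares the other liver cells. Male and female pups of each genotype, 10 days old at the first dose by the animal methods (the sequencing methods give 14 days as their age), received vehicle or TCS at 50 mg/kg by oral gavage on 4 consecutive days. Each group had 2 liver RNA libraries (n = 2), and each library was made from the pooled RNA of 2 mice, so p-values measure the spread between pools.

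ATF4 is a transcription factor of the integrated stress response. Its protein is made when amino acids are short or unfolded proteins collect in the endoplasmic reticulum, and it turns on genes for amino acid synthesis, amino acid import, aminoacyl-tRNA synthetases and stress regulators. TCS is known as an activator of xenobiotic sensing in rodent liver. The constitutive androstane receptor (CAR) and the pregnane X receptor (PXR) induce cytochrome P450 and conjugation genes, the peroxisome proliferator-activated receptor alpha (PPARα) induces genes of fatty acid oxidation, and NRF2 induces genes of the antioxidant defence.

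The libraries held 11624143 to 25573210 counts. *Atf4* (chromosome 15, 80255184 to 80257541, mm10) was at 59.4 and 62.8 CPM, the unit of counts scaled by TMM to a common library size, in F/F vehicle libraries, 58.6 and 59.8 in F/F TCS, 18.5 and 19.7 in ΔHep vehicle, and 17.5 and 17.4 in ΔHep TCS, so the genotype labels held in all 8 libraries and *Atf4* itself had an interaction of -0.09 on the log2 scale. The cells that gave the remaining *Atf4* counts in ΔHep liver were not tested. Hepatocyte genes led every library, with albumin at 100787 to 124213 CPM. The sex makeup of the pools differed between groups. *Xist*, the RNA of the inactive X chromosome, was at 717 and 757 CPM in the F/F TCS libraries, 778 in ΔHep vehicle library 1 and 753 in ΔHep TCS library 2, and at 0.346 to 23.2 CPM in the other 4, whose summed Y-linked counts were 163 to 179 CPM against 73.7 to 92.9. In F/F mice sex makeup and TCS therefore cannot be told apart, whereas in ΔHep mice each treatment had 1 library of each kind. Skeletal muscle transcripts summed to 768, 857 and 1093 CPM in F/F vehicle library 1, F/F TCS library 2 and ΔHep TCS library 2, and to 17.3 to 246 CPM in the others.

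No gene passed the test for the interaction. In edgeR's quasi-likelihood test none of 13633 genes had an adjusted p under 0.05, a share of 0%. An unadjusted p under 0.05 was held by 282 genes (2.07%), below the share of 0.05 that uniform p-values would give. Of these, 143 (1.05%) leaned toward a higher response in ΔHep mice and 139 (1.02%) toward a lower one. The smallest unadjusted p was 0.0026 and the smallest adjusted p was 1.00. DESeq2 gave 0 genes as well, with 93 at an unadjusted p under 0.05. Within each genotype the same fit called TCS responses. It called 76 genes (0.557%) in F/F mice, 70 of them higher with TCS, and 92 genes (0.675%) in ΔHep mice, 84 of them higher. The counts before adjustment were 1327 genes (9.73%) and 1569 genes (11.5%). Of the genes called, 66 were called in both genotypes, 10 in F/F mice alone and 26 in ΔHep mice alone. These counts changed most when a library of the same genotype was left out. Without F/F vehicle library 1 or 2, 33 and 35 genes were called in F/F mice, against 165 without F/F TCS library 1, 44 without F/F TCS library 2 and 50 without ΔHep TCS library 1. In ΔHep mice the count fell to 11 and 22 without vehicle library 1 or 2, and to 36 and 19 without TCS library 1 or 2. With sex makeup as a covariate 20 genes were called in F/F mice and 90 in ΔHep mice.

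The TCS responses of the 2 genotypes, which share no library, ran in the same direction wherever they were called. All 76 genes called in F/F mice moved the same way in ΔHep mice, 75 of them with an unadjusted p under 0.05 there. All 92 genes called in ΔHep mice moved the same way in F/F mice, 87 with an unadjusted p under 0.05. Over all genes tested these shares, in either direction, were 11.5% in ΔHep and 9.73% in F/F mice (edgeR). Both tests use 1 spread per gene, estimated from all 8 libraries. A call in 1 genotype therefore favours a small p in the other. Across all genes tested, 66.3% had responses of the same sign. Their sizes were close. The genes called in F/F mice had a median response of 0.81 on the log2 scale there and of 0.82 in ΔHep mice. Those called in ΔHep mice had a median of 0.84 there and of 0.72 in F/F mice, and in either case the genotype that chose the genes is favoured by the choice.

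A TCS effect averaged over the genotypes was called for 353 genes (2.59%), 276 higher and 77 lower. The estimated size of this effect is nearly independent of that of the interaction in the model. The choice still favours genes whose responses share a sign, and all 353 did. Both tests use the same estimated spread of each gene, so the choice also favours genes with a small spread. Over these responders the F/F and ΔHep log2 responses had a Pearson r of 0.90 and a Spearman rho of 0.92 across genes, which are not independent replicates. The 276 risen genes had an r of 0.86 and medians of 0.42 in F/F and 0.45 in ΔHep mice, and the 77 fallen genes had an r of 0.70 and medians of -0.31 and -0.34. Leaving out each library kept r over the responders between 0.85 and 0.91. The number of responders itself fell to between 107 and 220 without any library other than F/F TCS library 1, and to 111 with sex makeup as a covariate. Over all 13633 genes, most of which were not called, r was 0.41 and rho 0.40, and r fell to 0.13 without F/F TCS library 2 and to 0.14 without ΔHep TCS library 2, the TCS libraries with the most muscle transcripts. Over the 8422 genes with a mean of at least 10 CPM, a limit chosen after the data were seen, r was 0.65 and rho 0.58. With the sex covariate, in which F/F vehicle and F/F TCS pools do not overlap, r was 0.80 over the responders and turned to -0.42 over all genes and to -0.57 over the 8422.

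**Figure D1:**
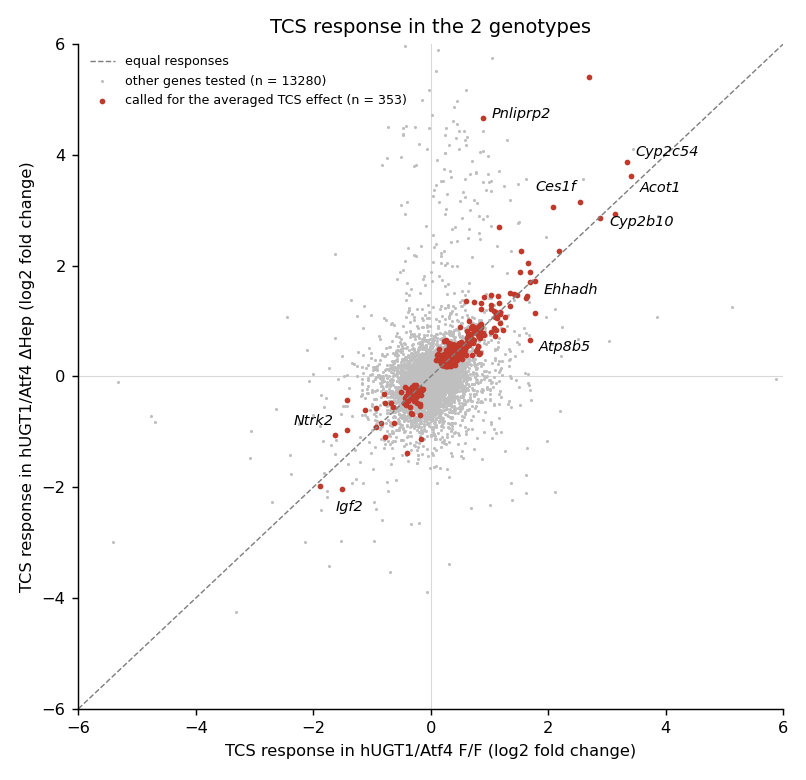
The log2 TCS response of each gene tested, in F/F mice (horizontal axis) and ΔHep mice (vertical axis), with the 353 genes called for the averaged effect in red and equality as a dashed line. The red genes lie along the line in both directions (r = 0.90), and 15 genes fall outside the axes.

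Sex makeup cannot be told apart from TCS in F/F mice, and the 95% interval of the interaction makes no allowance for it. Within that limit, the precision of the interaction sets what these libraries could show. The interval had a median half-width of 0.43 on the log2 scale over all genes and 0.29 over the 353 responders. For 324 responders (91.8%) the whole interval lay within a 2-fold difference of responses in either direction, and for 271 (76.8%) within a 1.5-fold difference. Over all genes tested these shares were 73.7% and 51.6%. Among the responders the median interaction was 0.01. An unadjusted p under 0.05 (edgeR) was held by 19, 12 higher and 7 lower in ΔHep mice (5.38% against 2.07% of all genes). The choice of responders favours a small spread, so their narrower intervals and this larger share are in part set by it. The risen responders leaned little toward either genotype, with 162 of 276 (58.7%) above 0 and a median of 0.02, beside 50.4% and a median of 0.00 for all genes. For the 48 responders with an averaged change of at least 2-fold, the median interaction was 0.09 and 26 had an interval within a 2-fold difference. Their interactions ran from -1.02 to 3.78, and 6 of the 48 had an unadjusted p under 0.05 (edgeR), against 2.07% of all genes. The largest interaction, 3.78, was that of the pancreatic lipase-related gene *Pnliprp2*, which was among the 6. The 48 also include the pancreatic acinar genes *Pnlip* (2.72) and *Cela2a* (1.53), which were not among the 6. These genes were named after their values were seen.

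The 12 genes with the smallest p for the averaged effect were all genes of drug and lipid metabolism, and each rose in both genotypes. *Cyp2b10* (chromosome 7, 25897620 to 25926624), a P450 gene known as the classic target of CAR, was at 12.9 and 15.1 CPM in F/F vehicle, 83.9 and 121 in F/F TCS, 10.8 and 13.8 in ΔHep vehicle, and 81.1 and 96.3 in ΔHep TCS libraries. Every TCS library stood above every vehicle library, and the genotypes overlapped under each treatment. The rises were 7.37-fold and 7.26-fold, and the interaction was -0.02 (95% interval -0.64 to 0.60). *Ehhadh*, which encodes a peroxisomal enzyme of fatty acid oxidation and is a target of PPARα, read 363 and 333 CPM in F/F vehicle, 1086 and 1300 in F/F TCS, 344 and 303 in ΔHep vehicle, and 953 and 1190 in ΔHep TCS. It rose 3.43-fold and 3.32-fold, again with overlapping genotypes, and its interaction was -0.05 (-0.45 to 0.35). *Abcc3*, an export pump for conjugated compounds, rose 2.68-fold and 2.8-fold with an interaction of 0.06 (-0.29 to 0.41).

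*Ces1g* (chromosome 8, 93302369 to 93337308), a carboxylesterase that hydrolyses lipid and drug esters, had the smallest p for the averaged effect and was also among the genes whose responses leaned apart. It was at 234 and 232 CPM in F/F vehicle, 480 and 467 in F/F TCS, 200 and 204 in ΔHep vehicle, and 491 and 502 in ΔHep TCS. ΔHep libraries were below F/F libraries under vehicle and above them under TCS, without overlap in either treatment. The rise was 2.03-fold in F/F and 2.45-fold in ΔHep mice, and the interaction was 0.27 (0.09 to 0.45, unadjusted p = 0.0079 from edgeR, adjusted p = 1.00). The interaction lay between 0.25 and 0.29 when any library was left out. *Ces1g* was among the genes named for the smallest interaction p, so this range describes it without support. The other carboxylesterases among the 12 had intervals that held 0. *Ces1f* rose 5.79-fold and 8.91-fold, with an interaction of 0.62 (-0.07 to 1.31), *Ces1e* 2.03-fold and 2.32-fold, *Ces1d* 1.71-fold and 1.75-fold, and *Ces2a* 2.21-fold and 2.17-fold. Reads from near-identical copies in this family can be split between genes by the counting, so single Ces genes are uncertain.

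The remaining genes of the 12 were glutathione transferases and Cyp2c P450s. *Gstm3*, a glutathione transferase, read 22.9 and 19.9 CPM in F/F vehicle, 46.0 and 49.0 in F/F TCS, 21.2 and 21.8 in ΔHep vehicle, and 57.2 and 60.5 in ΔHep TCS. Its vehicle levels overlapped and its TCS levels did not, and the interaction was 0.30 (0.02 to 0.59, unadjusted p = 0.039), under 0.05 in only 2 of the 8 fits with a library left out. *Gstt2* leaned the other way, with rises of 2.25-fold and 1.94-fold and an interaction of -0.22 (-0.51 to 0.08). *Cyp2c50* rose 3.22-fold and 3.67-fold, and *Cyp2c54* 10.1-fold and 14.6-fold, the latter with the widest interval of the 12 for its interaction of 0.54 (-0.39 to 1.47).

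**Figure D2:**
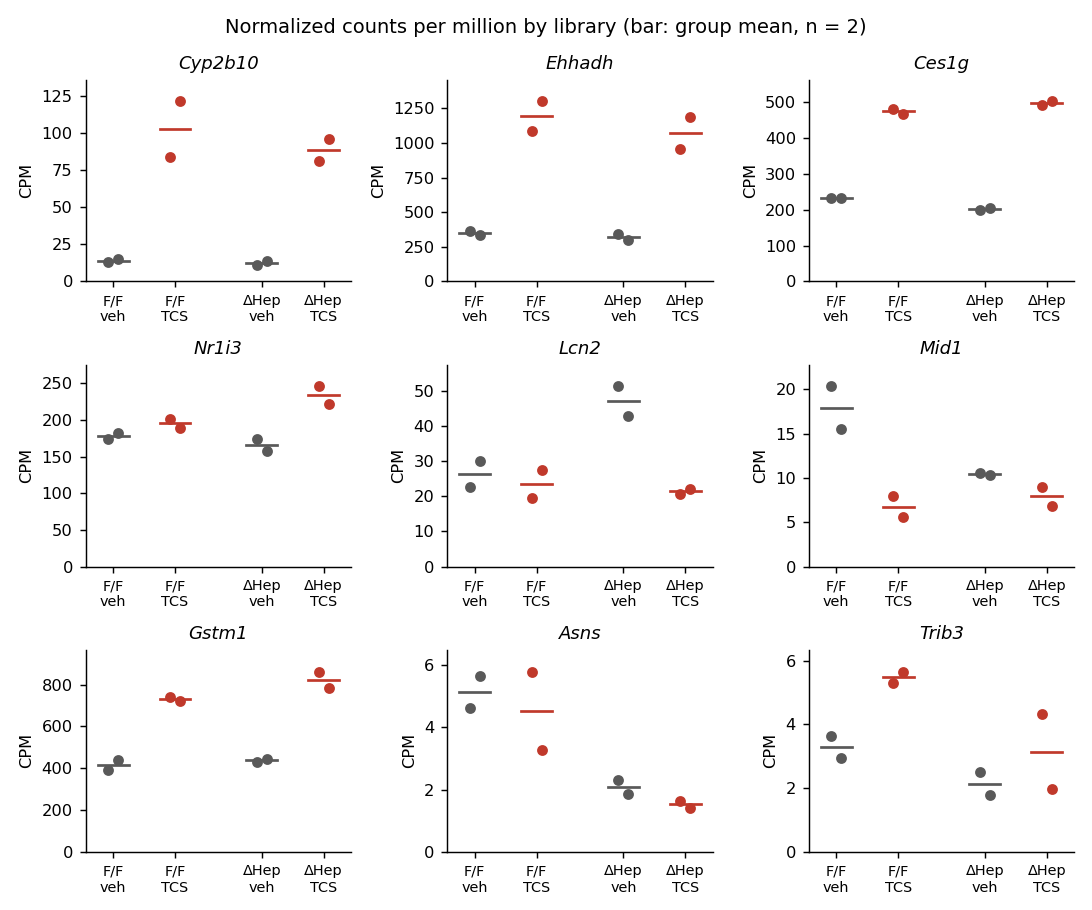
Normalized counts (CPM) of 9 genes in each library (points) with the group mean (bar, n = 2), vehicle in grey and TCS in red, every axis from 0. *Cyp2b10*, *Ehhadh* and *Gstm1* rise alike in both genotypes, *Nr1i3* is highest in ΔHep TCS, *Lcn2* in ΔHep vehicle and *Mid1* in F/F vehicle libraries, and *Asns* and *Trib3* are lower in ΔHep than in F/F libraries of the same treatment.

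The genes called in a single genotype mostly leaned the same way in the other. Of the 10 genes called in F/F mice alone, 9 had an unadjusted p under 0.05 in ΔHep mice (11.5% of all genes). The median adjusted p of the 10 was 0.0788 there (edgeR). Of the 26 called in ΔHep mice alone, 21 had an unadjusted p under 0.05 in F/F mice (9.73% of all genes). The median adjusted p of the 26 was 0.12 there (edgeR). The spread that both tests share favours a small p in the other genotype. Of these 36 genes, 10 had an unadjusted p under 0.05 for the interaction (edgeR), against 2.07% of all genes tested. Each was chosen by values that enter the interaction, so this share and their interactions are given as a description. Of the 10, those called in F/F mice were *Mid1*, *Atp8b5*, *Serpina1e* and *Neat1*. Those called in ΔHep mice were *Lcn2*, *Nr1i3*, *Dhdh*, *Wdtc1*, *Slc41a2* and *Acot12*.

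*Nr1i3* (chromosome 1, 171213970 to 171220701) encodes CAR itself. It was at 174 and 182 CPM in F/F vehicle, 201 and 189 in F/F TCS, 174 and 158 in ΔHep vehicle, and 246 and 222 in ΔHep TCS libraries. The ΔHep TCS libraries were the highest of all 8, and the vehicle libraries of the genotypes overlapped. The TCS level was 1.10-fold the vehicle level in F/F mice (adjusted p = 0.62) and 1.41-fold in ΔHep mice (adjusted p = 0.033, edgeR), and the interaction was 0.36 (0.11 to 0.61), between 0.29 and 0.43 when any library was left out. Among genes that CAR is known to induce, *Cyp2b10* had the interaction of -0.02 given above and the median of the 20 CAR targets tested was 0.02.

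*Lcn2* (chromosome 2, 32384633 to 32388252) encodes lipocalin 2, an acute phase protein that binds bacterial iron carriers. It was at 22.7 and 30.2 CPM in F/F vehicle, 19.4 and 27.5 in F/F TCS, 51.3 and 42.9 in ΔHep vehicle, and 20.8 and 22.1 in ΔHep TCS. The ΔHep vehicle libraries stood above the other 6, which overlapped, so the fall with TCS in ΔHep mice, to 0.456 of vehicle, started from a higher vehicle level. The interaction was -0.97 (-1.56 to -0.37). *Slc41a2*, a magnesium transporter, had the same order, with 11.5 and 15.7 CPM in ΔHep vehicle and 4.58 to 8.4 CPM in the other 6 libraries, and an interaction of -0.98. *Lcn2* is also made by neutrophils, whose 11 other listed markers summed to 27.8 and 36.8 CPM in ΔHep vehicle, 34.2 and 35.7 in F/F vehicle, and 13.8 to 29.3 CPM in TCS libraries. The vehicle libraries of the genotypes overlapped in that sum. Of the 10 neutrophil markers tested, *Lcn2* among them, 6 had interactions above 0, with a median of 0.26. That median ranged from -0.69 to 0.49 over left-out libraries, so the list shows no firm direction.

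*Mid1*, an X-linked ubiquitin ligase gene that spans the pseudoautosomal boundary in mice, was called in F/F mice alone. It was at 20.3 and 15.6 CPM in F/F vehicle, 7.91 and 5.54 in F/F TCS, 10.6 and 10.3 in ΔHep vehicle, and 9.0 and 6.83 in ΔHep TCS. The F/F vehicle libraries, both low in *Xist*, were the highest, and the ΔHep libraries did not divide by their *Xist* level. *Atp8b5*, a gene of the phospholipid flippase family, rose 3.21-fold in F/F mice, and its TCS to vehicle ratio in ΔHep mice was 1.58 (adjusted p = 0.30, edgeR), from vehicle levels of 2.94 and 1.77 CPM against 4.17 and 4.83. Both genes differed between the genotypes under vehicle and overlapped or nearly met under TCS. The others called in a single genotype differed less, with interactions of 0.48 for *Serpina1e*, of a family of near-identical copies of alpha-1 antitrypsin, -0.29 for the noncoding RNA *Neat1*, 0.27 for the dehydrogenase gene *Dhdh*, 0.29 for *Wdtc1* and 0.20 for the acetyl-CoA thioesterase gene *Acot12*.

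**Figure D3:**
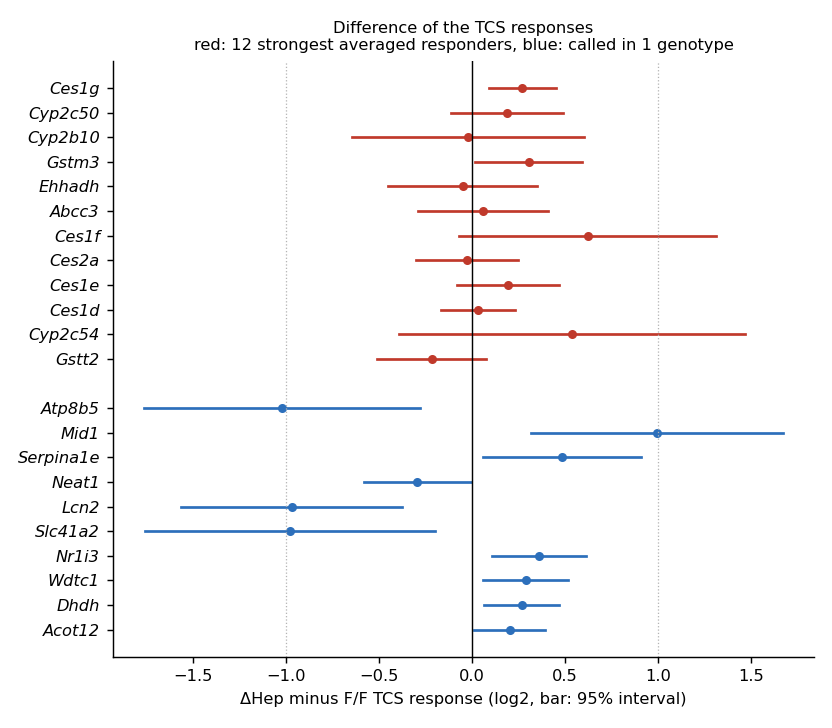
The interaction of single genes on the log2 scale (points) with its 95% interval (lines), for the 12 strongest averaged responders in red and the 10 genes called in 1 genotype with an unadjusted interaction p under 0.05 in blue, with dotted lines at a 2-fold difference. Most red intervals cross 0 and stay inside the dotted lines, and the blue genes, chosen by values that enter the interaction, lie to either side.

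The 24 genes with the smallest interaction p in either direction, at a level of at least 1 CPM in a group, were mostly genes with no TCS call of their own. Only 4 were called for the averaged effect, 2 were called in F/F and 3 in ΔHep mice, and 18 had responses of opposite sign. All 24 kept their sign when any library was left out and with sex makeup as a covariate, and 13 kept an unadjusted p under 0.05 with the covariate. Their p-values chose them, so the values describe them without support. *Sirt1*, a NAD-dependent deacetylase gene, was at 12.5 and 12.2 CPM in F/F vehicle, 10.9 and 10.7 in F/F TCS, 9.09 and 10.6 in ΔHep vehicle, and 14.2 and 13.5 in ΔHep TCS. With TCS it was lower in F/F and higher in ΔHep libraries, without overlap in either, and its interaction was 0.68 (0.30 to 1.05). Leaning the same way were *Dll1*, a Notch ligand (0.62), *Plcg1*, a phospholipase of receptor signalling (0.33), *Naa10*, an X-linked acetyltransferase gene (0.39), *Rps4l*, a ribosomal protein paralog (0.78), and the noncoding RNA *Malat1* (0.74), with *Ces1g*, *Nr1i3* and *Mid1* as given above. *Egfem1* (2.74), the kallikrein gene *Klk1* (2.10) and the chitinase-like gene *Chil4* (5.22) had larger values at levels of at most 4.36 CPM.

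The 12 genes that leaned toward a lower response in ΔHep mice had varied roles. *Islr*, a secreted protein of mesenchymal cells, was at 6.84 and 7.35 CPM in F/F vehicle, 7.61 and 8.0 in F/F TCS, 8.03 and 8.14 in ΔHep vehicle, and 4.84 and 5.18 in ΔHep TCS. Only the ΔHep TCS libraries stood apart, below the other 6. *Ptk7*, a receptor-like pseudokinase of Wnt signalling, had the same shape, at 4.93 and 4.53 CPM in ΔHep TCS and 6.99 to 8.33 CPM elsewhere. The basement membrane collagen gene *Col4a5* (-0.53), the endothelial transcription factor gene *Sox17* (-0.79), the inhibitory Smad gene *Smad6* (-0.69) and the class II antigen gene *H2-Eb1* (-0.64) also leaned this way. So did the cilium dynein gene *Dnaic1* (-0.78), *Elp5* of the tRNA-modifying Elongator complex (-0.43), *Scand1* (-0.50), *Fndc1* (-1.58), *Lcn2* as given above, and the cardiac troponin gene *Tnnt2* (-3.71), which was at 0.192 to 1.43 CPM. Summed stellate cell and matrix markers were 1367 and 1523 CPM in ΔHep TCS and 1690 to 1907 CPM in the other 6 libraries, and in bulk liver fewer cells of a type and less RNA per cell cannot be told apart. Of the 12 such markers tested 9 had interactions below 0, with a median of -0.10. The fibrillar collagen genes *Col1a1*, *Col1a2* and *Col3a1* were below 0 with an unadjusted p under 0.05 (edgeR), as were 1.02% of all genes. With the sex covariate the median of the 12 was -0.03. Of 11 endothelial markers tested 8 were above 0, with a median of 0.06 that ranged from -0.11 to 0.19 over left-out libraries. With the sex covariate their median was -0.10 and only 1 was above 0.

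The target lists of the receptors and of NRF2 had median interactions near 0. Of 42 PPARα targets tested, 19 were called in F/F and 19 in ΔHep mice and 28 for the averaged effect, all higher. Their median response was 0.54 in F/F and 0.53 in ΔHep mice, and 24 of 42 interactions were above 0, with a median of 0.01. With sex makeup as a covariate 35 were above 0, with a median of 0.14. All genes tested had 0.513% called higher in F/F mice, 0.616% in ΔHep mice and 2.02% on average. *Cyp4a10*, a fatty acid hydroxylase gene of this list, rose 4.55-fold and 4.77-fold, and *Cyp4a14* 2.76-fold and 2.77-fold. Of 20 CAR targets, 7 and 6 were called, with medians of 0.61 and 0.54, and of 12 PXR targets, 1 and 2 were called, with medians of 0.34 and 0.32. Their median interactions were 0.02 and 0.04, and became 0.08 and 0.35 with the covariate. *Cyp3a11*, the main PXR target among P450s, rose 1.82-fold and 1.86-fold, its interaction being 0.03 (-0.30 to 0.36). Of 37 NRF2 targets, 9 and 11 were called and 18 for the averaged effect, with medians of 0.30 and 0.37 and a median interaction of -0.01, which was 0.03 with the covariate. The 17 genes of mitochondrial and the 17 of peroxisomal fatty acid oxidation had median responses of 0.28 and 0.37 in F/F mice and 0.32 and 0.35 in ΔHep mice, with median interactions of 0.01 and 0.02.

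The study also drew shorter lists from these same libraries, which are therefore not independent evidence of direction. All 6 targets of PPARα, CAR and PXR rose in both genotypes, with medians of 1.62 and 1.60. Of the 8 NRF2 targets, 2 were called in F/F and 3 in ΔHep mice, the median responses were 0.27 and 0.40, and 6 interactions were above 0. *Gstm1*, a glutathione transferase gene, read 394 and 439 CPM in F/F vehicle, 743 and 721 in F/F TCS, 432 and 446 in ΔHep vehicle, and 863 and 786 in ΔHep TCS. It rose 1.76-fold and 1.88-fold, with an interaction of 0.10 (-0.14 to 0.34). *Nqo1*, a quinone reductase gene, was at 10.2 to 10.8 CPM in the 4 vehicle libraries, 12.7 and 12.3 in F/F TCS, and 18.7 and 14.6 in ΔHep TCS. The TCS libraries of the genotypes did not overlap, and the interaction was 0.40 (-0.03 to 0.84, unadjusted p = 0.065 from edgeR), but 0.11 with sex makeup as a covariate. *Prdx1*, a peroxiredoxin gene, rose 1.26-fold and 1.31-fold. *Gsta2*, a glutathione transferase gene, was called in ΔHep mice alone, with log2 responses of 1.66 and 2.05 and an interaction of 0.39 (-0.72 to 1.5). The median interaction of these 8 genes was 0.07, between 0.03 and 0.12 when any library was left out and 0.03 with the covariate.

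The enzyme families of drug metabolism differed in their lean, and no member passed the test. Of 12 carboxylesterases tested, 9 had interactions above 0, with a median of 0.23, and the median response was 0.75 in F/F and 1.09 in ΔHep mice. The range over left-out libraries, 0.02 to 0.28, came near 0. Of 13 Cyp2c P450s, 10 were above 0, with a median of 0.19 and a range of 0.04 to 0.51. *Cyp2c40*, an arachidonic acid hydroxylase gene in mice, was at 74.8 and 57.7 CPM in F/F vehicle, 82.2 and 72.1 in F/F TCS, 55.6 and 58.7 in ΔHep vehicle, and 91.9 and 86.1 in ΔHep TCS. Its interaction was 0.42 (0.04 to 0.80), with an unadjusted p under 0.05 (edgeR). The value lay between 0.22 and 0.59 when any library was left out. With sex makeup as a covariate it was 0.29 (unadjusted p = 0.24, edgeR). Of 8 mouse UDP-glucuronosyltransferases, 7 were above 0, with a median of 0.11 and a range of 0.04 to 0.14. The other conjugation families had medians closer to 0, with 10 of 20 glutathione transferases above 0 and a median of 0.00, and 5 of 9 sulfotransferases above 0 and a median of 0.03. All genes tested had 50.4% above 0 and a median of 0.00. Replicate libraries of a group differed by a SD of 0.13, 0.16 and 0.04 in the median deviation of the carboxylesterase, Cyp2c and UDP-glucuronosyltransferase lists.

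None of the 5 ATF4 target genes that the study drew from these libraries was called for TCS in F/F mice, in ΔHep mice or on average. This is near the share over all genes tested, of which 0.557%, 0.675% and 2.59% were called. The 5 genes are *Asns*, *Phgdh* and *Psat1* of amino acid synthesis, the tRNA synthetase gene *Cars* and the stress pseudokinase gene *Trib3*. *Asns*, asparagine synthetase, was at 4.61 and 5.64 CPM in F/F vehicle, 5.79 and 3.26 in F/F TCS, 2.3 and 1.85 in ΔHep vehicle, and 1.64 and 1.42 in ΔHep TCS. ΔHep libraries were below F/F libraries without overlap, whereas TCS and vehicle overlapped in F/F mice, and the interaction was -0.28 (-1.32 to 0.75). *Trib3* was at 3.65 and 2.95 CPM in F/F vehicle, 5.31 and 5.66 in F/F TCS, 2.49 and 1.79 in ΔHep vehicle, and 4.33 and 1.96 in ΔHep TCS. F/F libraries did not overlap between treatments and ΔHep libraries did, but the interaction was -0.24 with an interval of -1.42 to 0.93. *Psat1* had an interaction of -0.21 (-0.72 to 0.31), *Cars* -0.07 (-0.52 to 0.39) and *Phgdh* -0.86 (-2.39 to 0.67).

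All 5 interactions were thus below 0, with a median of -0.24 that ranged from -0.42 to -0.11 over left-out libraries, and each interval held 0. The longer lists leaned less. Of 12 ATF4 targets of amino acid and folate metabolism 5 were above 0, with a median of -0.05, of 16 stress regulators 6 were, with a median of -0.04, and of 20 aminoacyl-tRNA synthetases 8 were, with a median of -0.05. None of these genes was called in F/F mice, 1 stress regulator was called in ΔHep mice, and 2 were called, higher, for the averaged effect. Of all genes tested 0.557%, 0.675% and 2.59% were called in these comparisons. The 1 called in ΔHep mice was *Gdf15*, a stress-induced hormone gene named here after its value was seen, with log2 responses of 1.07 and 1.18 and an interaction of 0.11 (-0.55 to 0.78). Among the stress regulators *Ddit3*, which encodes CHOP, was at 4.81 and 3.94 CPM in F/F vehicle, 5.55 and 4.97 in F/F TCS, 5.04 and 4.17 in ΔHep vehicle, and 3.89 and 3.22 in ΔHep TCS. Its TCS levels did not overlap between genotypes, and its interaction was -0.65 (-1.34 to 0.03).

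The promoters of 3 of these genes show the letters that ATF4 and its partners of the C/EBP family are known to bind, TGATGNAA, where N is any base. The sequences below are the 250 bases before the RefSeq start on GRCm38.p6, with the match in capitals on whichever strand it was found. They are shown because their genes leaned in different directions. *Asns* lies on the minus strand at chr6:7693210-7693459, *Chac1*, a glutathione-degrading enzyme gene, on the plus strand at chr2:119350992-119351241, and *Atf3*, a stress transcription factor gene chosen after its value was seen, on the minus strand at chr1:191183334-191183583.
Asns: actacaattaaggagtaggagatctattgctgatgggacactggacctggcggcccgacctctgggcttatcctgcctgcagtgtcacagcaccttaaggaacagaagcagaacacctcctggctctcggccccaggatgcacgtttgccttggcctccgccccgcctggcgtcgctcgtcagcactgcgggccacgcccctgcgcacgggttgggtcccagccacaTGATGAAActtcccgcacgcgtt
Chac1: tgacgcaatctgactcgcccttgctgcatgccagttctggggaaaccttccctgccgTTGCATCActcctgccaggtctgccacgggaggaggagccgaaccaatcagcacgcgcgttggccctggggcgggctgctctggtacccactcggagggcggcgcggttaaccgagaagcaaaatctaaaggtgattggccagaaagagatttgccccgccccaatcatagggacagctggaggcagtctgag
Atf3: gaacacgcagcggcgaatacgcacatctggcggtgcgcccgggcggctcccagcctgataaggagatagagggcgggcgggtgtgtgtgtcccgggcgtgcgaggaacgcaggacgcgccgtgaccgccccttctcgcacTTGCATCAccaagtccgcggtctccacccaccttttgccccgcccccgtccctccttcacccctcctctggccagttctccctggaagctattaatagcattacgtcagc

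The match begins 23 bases before the start in *Asns*, 193 in *Chac1* and 110 in *Atf3*, and their interactions were -0.28, -0.96 and 0.67, with intervals that held 0. In windows of 300 bases around the start, 8 of the 26 listed ATF4 target genes with a RefSeq window (30.8%) held the motif on either strand, as did 1219 of all 27025 genes with such a window (4.51%). A match of letters is a description and shows no binding.

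Acute phase genes, whose products hepatocytes secrete in inflammation, leaned toward a lower response in ΔHep mice. Of 20 tested, 19 had interactions below 0, with a median of -0.23, and the median response was -0.03 in F/F and -0.27 in ΔHep mice. None was called lower in F/F mice (0.044% of all genes) and 3 were in ΔHep mice (0.0587% of all genes). These were *Lcn2*, *Steap4* and, named after its value was seen, *Hpx*, which encodes hemopexin. For the effect averaged over genotypes 6 of the 20 were called lower and none higher, beside 77 lower of all 13633 genes tested. *Hpx* had close responses in both genotypes, -0.30 in F/F mice (adjusted p = 0.0887, edgeR) and -0.41 in ΔHep mice, with an interaction of -0.12 (-0.30 to 0.07). *Steap4*, a metalloreductase gene, read 168 and 149 CPM in F/F vehicle, 122 and 129 in F/F TCS, 202 and 158 in ΔHep vehicle, and 112 and 115 in ΔHep TCS. It was lower with TCS in both genotypes without overlap, and the interaction was -0.34 (-0.70 to 0.02). The fibrinogen gene *Fgg* had an interaction of -0.18 (-0.37 to 0.01). The list median stayed between -0.30 and -0.14 when any library was left out and was -0.14 with sex makeup as a covariate, and replicate libraries differed by a SD of 0.05. In the plot of list levels by library the ΔHep vehicle libraries stood highest and both ΔHep TCS libraries lowest, beside F/F TCS library 1, so the genotypes separated under vehicle and overlapped under TCS. Complement and coagulation genes, 21 tested, had 17 below 0, with a smaller median of -0.06, a range of -0.06 to -0.02 and -0.06 with the covariate. Their median response was -0.12 in F/F and -0.20 in ΔHep mice. For the averaged effect 6 of the 21 were called lower, beside the same 77 over all genes.

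Chaperones and degradation factors of the endoplasmic reticulum also leaned lower in ΔHep mice. Of 26 tested, 20 were below 0, with a median of -0.14. None was called in F/F mice (0.557% of all genes) or in ΔHep mice (0.675% of all genes). The response medians were 0.09 in F/F and -0.04 in ΔHep mice. *Sdf2l1*, a cofactor of chaperones in the endoplasmic reticulum, was at 8.16 and 10.2 CPM in F/F vehicle, 11.8 and 14.97 in F/F TCS, 16.1 and 11.4 in ΔHep vehicle, and 11.7 and 10.7 in ΔHep TCS. Its F/F libraries were higher with TCS without overlap while its ΔHep libraries overlapped, and its interaction was -0.86 (-1.49 to -0.24, unadjusted p = 0.013 from edgeR). *Pdia3*, a disulfide isomerase gene, had an interaction of -0.26. The list median ranged from -0.22 to -0.02 over left-out libraries and was -0.03 with sex makeup as a covariate.

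For interferon-stimulated genes and cell proliferation genes the lean changed sign with sex makeup as a covariate, and the cause was not tested. Of 25 interferon-stimulated genes, 22 had interactions below 0, with a median of -0.27 that ranged from -0.74 to -0.07 over left-out libraries, but the median was 0.21 with the covariate. The GTPase gene *Igtp* was at 42.3 and 38.8 CPM in F/F vehicle, 44.5 and 62.6 in F/F TCS, 69.2 and 51.4 in ΔHep vehicle, and 39.2 and 50.04 in ΔHep TCS. The highest library, ΔHep vehicle 1, and the next, F/F TCS 2, were high in *Xist*, but ΔHep vehicle 2, low in *Xist*, came before the other Xist-high libraries. The interaction of -0.83 became -0.25 with the covariate. Of 30 proliferation genes 24 were above 0, with a median of 0.09, which ranged from -0.21 to 0.48 and was -0.27 with the covariate. The F/F TCS libraries, both high in *Xist*, stood apart from each other, with median log2 deviations of -0.20 and 0.21 for the interferon list and of 0.30 and -0.38 for the proliferation list. Kupffer cell and macrophage markers, 12 tested, had 11 interactions below 0, with a median of -0.15 and a range of -0.34 to 0.03, and summed to 565 to 834 CPM per library.

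**Figure D4:**
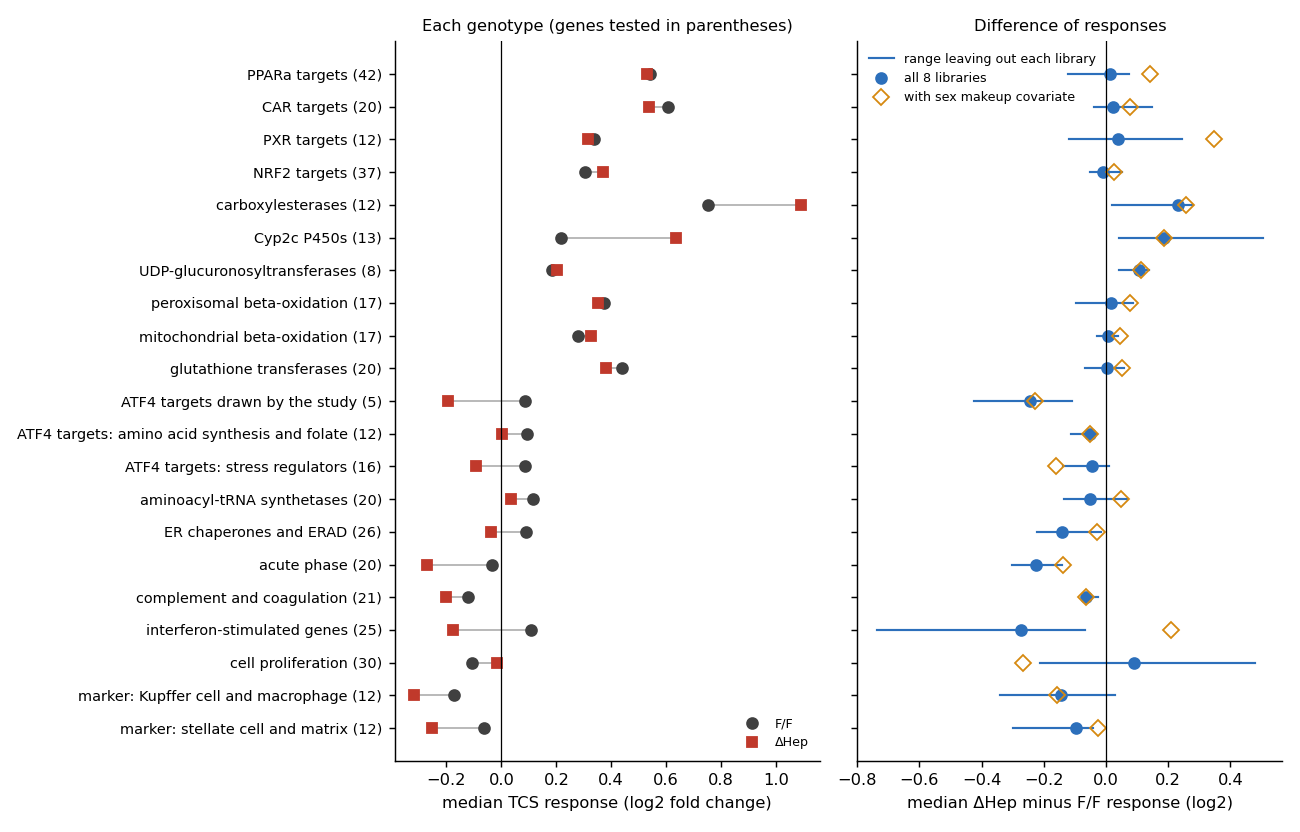
Left, the median log2 TCS response of each gene list in F/F (black circles) and ΔHep mice (red squares), with the number of genes tested. Right, the median interaction of the same lists with all 8 libraries (blue circles), its range when each library is left out (blue lines) and its value with sex makeup as a covariate (open diamonds). PPARα, CAR and NRF2 targets sit near 0 with all 8 libraries, acute phase genes at -0.23 keep their side, and interferon-stimulated and proliferation genes change side with the covariate.

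**Figure D5:**
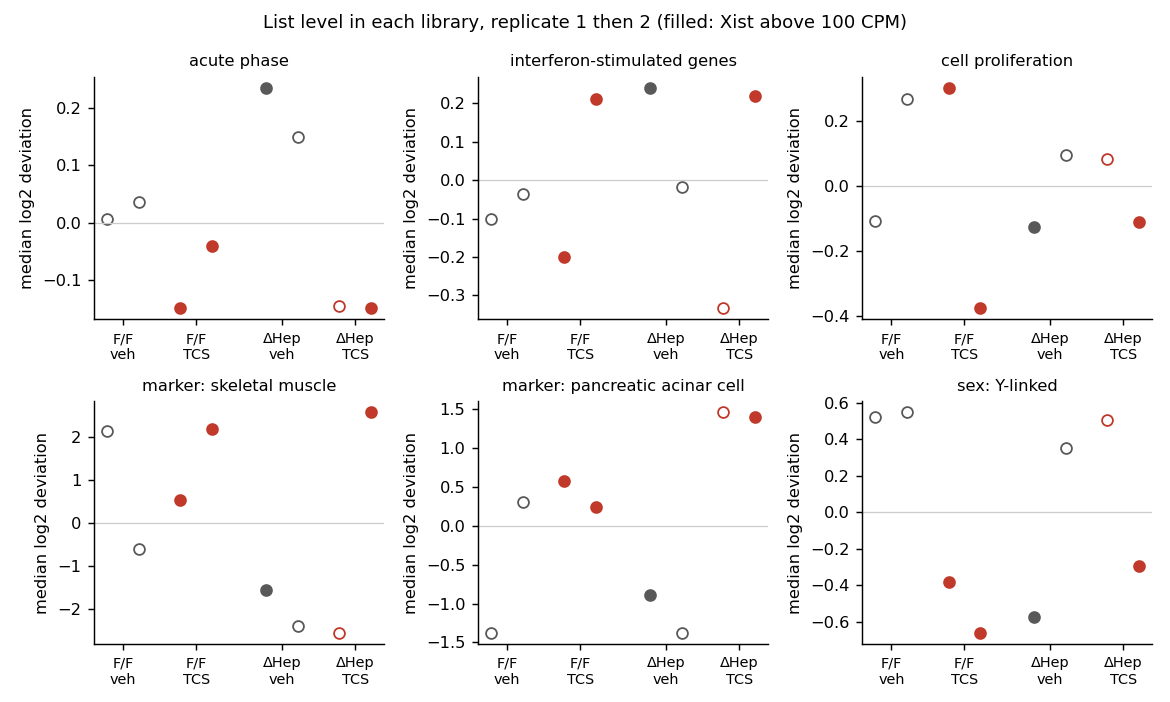
The median log2 deviation of the genes of 6 lists from their mean over all libraries, for each library (replicate 1 then 2 in each group), vehicle in grey and TCS in red, filled where *Xist* was above 100 CPM. Acute phase genes are highest in both ΔHep vehicle libraries, interferon-stimulated and proliferation genes differ as much within groups as between them, muscle genes are high in 3 libraries of different groups, and Y-linked genes are low in the filled libraries.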

How the data were processed

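Liver RNA of 8 pools was sequenced from a stranded mRNA kit, and the processing notes of the submitters list bcl2fastq 2.20, STAR 2.7.9a and the build mm10. How reads were assigned to genes is not given in the sources used here. Raw counts per gene symbol, as the authors deposited them, were used unscaled. The 8 columns were mapped to samples by name, and the number of sample columns not used was 0. A rescaled copy of the counts and 3 tables of the authors' own comparisons (fold changes and p-values for TCS, the deletion and their interaction) were not used.

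Genes passed filterByExpr of edgeR 4.0.16 (R 4.3.3, limma 3.58.1) at its minimum count of 10 and minimum total of 15. TMM-normalized counts were fitted with 1 mean per group by the quasi-likelihood method, with 4 residual degrees of freedom. The interaction was (ΔHep TCS minus ΔHep vehicle) minus (F/F TCS minus F/F vehicle), all p-values were two-sided, and they were adjusted by Benjamini and Hochberg over all genes tested. A gene was called at an adjusted p under 0.05. Standard errors followed from the F statistic, and intervals are at 95%. Libraries of a group differed beyond sampling noise (7.71 to 17.0 chi-square units per gene) and were kept as separate samples, and intervals cover the spread between pools. The procedure was tested on simulated data. Alternatives were RLE factors, no filter, DESeq2 1.42.0, the replicate number as a block, sex makeup (summed Y-linked CPM as a share of the highest library) as a covariate, and each library left out.

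Named genes were the 12 with the smallest interaction p in each direction (mean of 1 CPM or more in some group, numbered gene models left out), the 12 with the smallest adjusted p for the averaged effect, genes called in 1 genotype with an unadjusted interaction p under 0.05, up to 3 members of each list described, and every gene of the lists drawn by the study. Members and lists were chosen with earlier results of these data known. Coordinates come from GENCODE on GRCm38 and promoters from RefSeq on GRCm38.p6.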

Additional observations from a re-analysis of the deposited data

How the results depend on the processing

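The interaction gave 0 called genes under every alternative except the sex covariate, which gave 1, *Krt13*, named after its values were seen, whose counts were 4302 in F/F TCS library 2 and 59 in ΔHep TCS library 2 and at most 22 elsewhere, so that its fitted log2 value of 63.3 is not an interpretable fold. Its unadjusted count was 93 with DESeq2 and 216 to 455 over left-out libraries, the highest without F/F TCS library 1. The genes called for TCS in F/F mice numbered 139 without the filter, 166 with DESeq2, 20 with the sex covariate and 33 to 165 over left-out libraries. In ΔHep mice they numbered 200, 221, 90 and 11 to 107, and for the averaged effect 538 without the filter, 488 with DESeq2, 111 with the sex covariate and 107 to 363. Pearson r over all genes was 0.16 without the filter, -0.42 with the sex covariate and 0.13 to 0.44 over left-out libraries, and rho was 0.25, 0.26 and 0.25 to 0.38. For genes of at least 10 CPM, chosen after seeing the data, r was 0.65 and rho 0.58, with r of 0.24 to 0.69 over left-out libraries. Over the responders r was 0.80 with the sex covariate and 0.85 to 0.91 over left-out libraries. The cause of these changes was not tested.

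Of 53 median interactions of lists, all stayed within the spread of replicates with RLE factors, 29 moved past it with the sex covariate, and 106 of 424 values did so when a library was left out. Same-numbered libraries did not pair, with correlations of their deviations from -0.42 to 0.37 between groups. With the replicate number as a block, 0 genes were called for the interaction and 256 had an unadjusted p under 0.05, 64 were called in F/F mice, 72 in ΔHep mice and 249 on average, and r over all genes was 0.35. At 11624143 to 25573210 counts per library, genes of a few CPM had wide intervals, and with 2 pools per group the spread between pools sets the precision.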

Other observations

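Transcripts of other organs stood out in single libraries. Skeletal muscle, squamous and stomach lists were added after the data were seen. All 20 muscle genes tested had interactions above 0, with a median of 3.91, but the median ranged from -1.72 to 5.17 over left-out libraries. Their summed level was 768 and 120 CPM in F/F vehicle, 246 and 857 in F/F TCS, 48.7 and 22.6 in ΔHep vehicle, and 17.3 and 1093 in ΔHep TCS libraries. Squamous epithelium genes summed to 706 CPM in F/F TCS library 2, where the keratins *Krt4* and *Krt13* were at 253 and 246 CPM, and to at most 9.86 CPM elsewhere. Stomach and intestine genes summed to 312 CPM in F/F vehicle library 1, with the gastric mucin *Muc6* at 127 CPM, and to 57.6 to 73.9 CPM elsewhere.

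Pancreatic acinar genes were higher in both ΔHep TCS libraries. Their sum was 10.1 and 48.6 CPM in F/F vehicle, 58.5 and 41.7 in F/F TCS, 21.2 and 12.5 in ΔHep vehicle, and 105 and 96.6 in ΔHep TCS. The ΔHep TCS libraries stood above the other 6, and all 11 genes tested had interactions above 0. Of the 11, 3 had an unadjusted p under 0.05 from edgeR, as did 1.05% of all genes in this direction. The median interaction was 2.55, with a range of 0.22 to 3.44 over left-out libraries. Of the defining digestive enzymes, *Cela2a* was at 20.0 and 18.0 CPM and *Ctrb1* at 21.9 and 18.3 CPM in ΔHep TCS, against 1.27 to 12.6 CPM in the other libraries.

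Fetal liver genes, 10 tested, had 8 interactions below 0, with a median of -0.23 and a range of -0.48 to 0.08. Of 16 peroxisome biogenesis genes 12 were above 0, with a median of 0.07 and a range of 0.04 to 0.13. Of 33 ribosomal protein genes 22 were above 0, with a median of 0.03 and a range of -0.01 to 0.07. With the sex covariate 17 of the ribosomal protein genes were above 0, with a median of 0.003. X-linked genes made up 414 of the genes tested (3.04%) and 11 of the 282 with an unadjusted interaction p under 0.05 (3.90%), although all 4 Y-linked genes tested had interactions above 0, with a median of 1.30, and 0.20 with sex makeup as a covariate. The globin genes *Hba-a1* and *Hbb-bs* were listed at 0 in all 8 libraries.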
